A study of Mus musculus with 6 samples.

Results

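Secreted defense genes, 10 in all, were followed one by one through colon tumors of 2 mouse genotypes: the serum amyloid genes Saa1, Saa2 and Saa3, the Reg family lectins Reg3b, Reg3g and Reg4, and Pla2g2a, Lyz1, Retnlb and Ang4. They were chosen by name, with earlier results of these data known, and each was read from the probe set that carries its symbol. All 10 genes, of 21335 that the array annotation names, have 1 probe set each, and that set carries no other symbol. The tumors were cut out by laser and were of 2 kinds, 3 each: the double knockouts (CDX2P-G19Cre;Apcflox/flox;Tgfbr2flox/flox) and the Apc knockouts (CDX2P-G19Cre;Apcflox/flox). The mice were C57BL/6J by label and 3 weeks old, and each tumor was run on 1 Affymetrix Mouse Gene ST array. Both groups carry the Cre transgene, driven by a human CDX2 promoter fragment active in colon epithelium, and both lose Apc. The Cre carries a run of guanines that puts it out of frame, and it becomes active at random where that run mutates back. The double knockouts also lose Tgfbr2, the type II TGF-β receptor, and no normal colon was among the arrays.

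Serum amyloid A proteins are small apolipoproteins that bind retinol and bacterial lipids. Saa1 and Saa2 are made by liver and by gut epithelium, while Saa3 is made largely outside the liver, in epithelium, fat and macrophages. Inflammatory cytokines induce all of them through C/EBP, NF-κB and STAT3. Reg3b and Reg3g are C-type lectins that kill or keep away bacteria at the epithelial surface, and interleukin-22 induces them. Reg4, a relative, marks the deep secretory cells at the base of colonic crypts. Lyz1 (Paneth cell lysozyme), Pla2g2a (secretory phospholipase A2) and Ang4 (angiogenin 4, a microbicidal ribonuclease) are granule proteins of Paneth cells, which normally line small intestinal crypts, and Ang4 is also made by goblet cells. Retnlb (RELM-β) is a goblet cell product induced by type 2 cytokines.

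Signals are RMA values on the log2 scale, so a difference of 1 is a doubling, and the levels of different probe sets are not comparable with each other. Array medians lay between 7.68 and 7.80. Double knockout tumor 2 stood apart, with correlations of 0.956 to 0.968 with the other arrays over all probe sets, against 0.980 to 0.988 among the remaining 5. Differences of the 10 genes are therefore also given without that tumor. Tgfbr2 had a lower signal in every double knockout tumor (10.35 to 10.98) than in any Apc knockout tumor (11.09 to 11.37), and Apc was at 10.16 to 10.77 in the former and 10.76 to 10.84 in the latter. Whether the probes lie in the deleted exons was not examined, so these levels do not check the genotypes. Each label carries a number of its own, but nothing states that the tumors came from separate mice, so p-values measure the spread between these tumors. The RNA came from laser-dissected tissue and not from single cells, so fewer cells of a type and less RNA per cell cannot be told apart.

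Of these genes, 7 had a lower mean signal in the double knockouts than in the Apc knockouts, and 3 a higher one. Saa3, Pla2g2a and Lyz1 were lower in every double knockout tumor than in any Apc knockout tumor. The largest mean differences were those of Saa3 (3.22-fold lower), Saa1 (3.05-fold higher), Reg3b (2.76-fold lower) and Reg3g (2.33-fold lower). None of the 10 passed an adjusted p of 0.05 in limma, double knockout minus Apc knockout, and neither did any of the 19506 probe sets tested (0%). In that fit of all 19506 sets 347 were higher and 745 lower at an unadjusted p under 0.05, and the unpaired test named in the methods found 0 after adjustment and 409 and 589 before it. When the limma fit was instead limited to sets of low variation within groups, which kept Reg4 alone of the 10, 107 other sets passed the adjusted threshold. That filter picks sets by the same spread within groups that the test uses, which lowers p-values. The 107 are therefore not counted as changes. The median log2 difference of the 10 genes was −0.69, against 0.01 over all sets tested. A lower mean was found for 7 of 10 genes (47.7% of all sets), no overlap in the lower direction for 3 (6.94%) and an unadjusted p under 0.05 in the lower direction for 1, Saa3 (3.82%). Because the genes were chosen with earlier results of these data known, these counts are not independent evidence. With double knockout tumor 2 left out, 7 of 10 were still lower, but the median shrank to −0.14, against 0.00 over all sets.

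**Figure D1:**
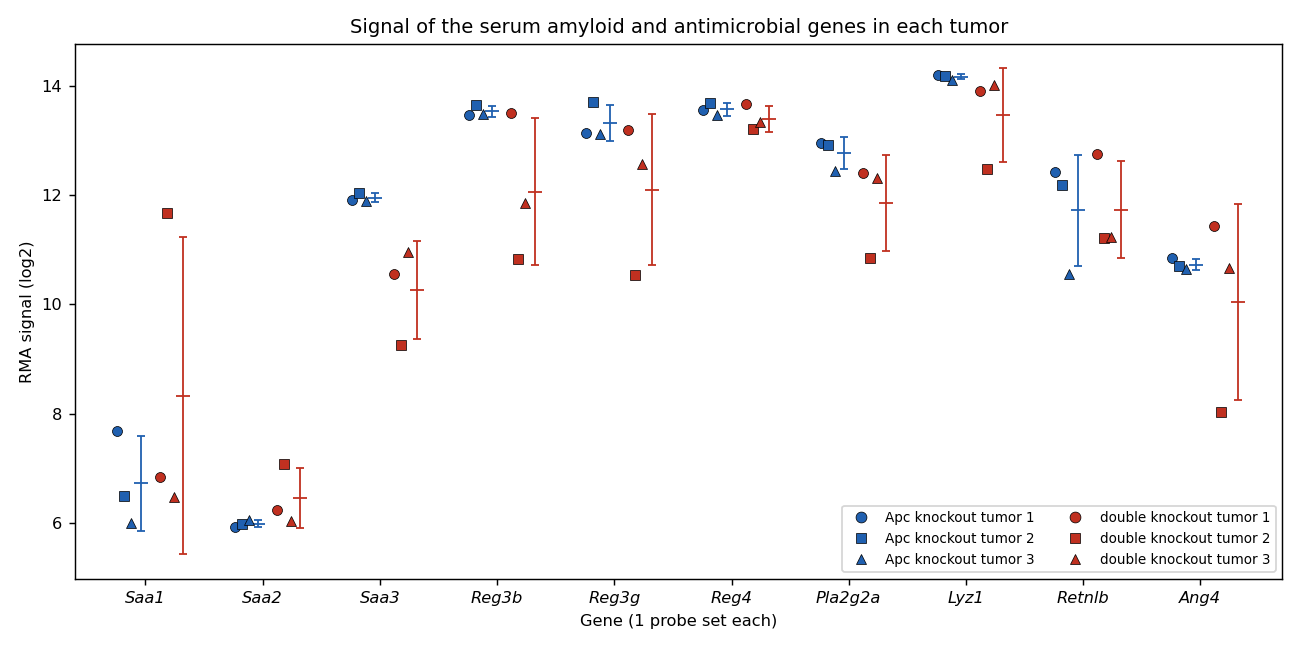
Log2 RMA signal (vertical axis) for each of the 10 genes (horizontal axis), 1 point per tumor, in the Apc knockouts (blue) and double knockouts (red), and a bar for each group's mean and SD (n = 3). The squares of double knockout tumor 2 lie lowest of all 6 tumors for 7 genes and highest for Saa1 (11.68) and Saa2 (7.09), whereas the Apc knockouts lie within 0.20 of each other for Saa2, Saa3, Reg3b, Lyz1 and Ang4.

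The serum amyloid genes did not share a direction. Saa3 was lower in the double knockouts, while Saa1 was high in 1 double knockout tumor only. Saa3 had signals of 10.56, 9.25 and 10.96 in double knockouts 1 to 3 and 11.91, 12.04 and 11.89 in Apc knockouts 1 to 3. The groups did not overlap, and the Apc knockouts spanned just 0.15. Its means were 10.26 ± 0.89 (SD, n = 3) and 11.95 ± 0.08 (SD, n = 3), a log2 difference of −1.69 (standard error 0.42, 95% confidence interval −2.72 to −0.65, adjusted p = 0.821 from limma). The exact permutation test of the tumors gave p = 0.1, two-sided, the smallest that 3 against 3 allow. Without double knockout tumor 2 the difference was −1.19 (2.27-fold lower, adjusted p = 0.633 from limma). Over all alternatives its adjusted p in limma lay between 0.507 and 0.945. The study lists Saa3 among its lowered genes on the strength of these same tumors, so the direction is not independent evidence.

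Saa1 had signals of 6.84, 11.68 and 6.48 in double knockouts 1 to 3 and 7.69, 6.49 and 6.01 in Apc knockouts 1 to 3. Double knockout tumor 2 was 32.5-fold above the mean of the other double knockouts, and those 2 lay inside the range of the Apc knockouts. The mean log2 difference of 1.61 (standard error 1.41, 95% confidence interval −1.82 to 5.04, adjusted p = 0.835 from limma) was smaller than the SD of 2.90 among double knockouts, and it was −0.07 without tumor 2. Saa2 had signals of 6.24, 7.09 and 6.05 in the double knockouts and 5.94, 5.98 and 6.06 in the Apc knockouts. Double knockout tumor 2 was again the highest of the 6, by less than for Saa1. The log2 difference of Saa2 was 0.47 (95% confidence interval −0.20 to 1.13, adjusted p = 0.821 from limma), and 0.15 without that tumor. Saa2 signals exceeded no more than 22.1% of the probe sets of each Apc knockout array and 39.8% in double knockout tumor 2. No detection call was made, so the share of background in these low signals is not known. Saa1 and Saa2 are near-identical genes, and how far their probes share targets was not examined.

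The serum amyloid genes are neighbors on 1 chromosome, in the order Saa3, Saa4, Saa1, Saa2 in the RefSeq annotation of GRCm38.p6. Their promoter windows are shown because Saa1 and Saa3 parted in the same tumor. Each window runs from 250 bases before to 50 bases after a RefSeq transcript start, in GRCm38.p6, 5′ to 3′ on the gene's strand, and capitals mark letters that match a searched motif.
Saa1, chr7:46742931-46743230, minus strand: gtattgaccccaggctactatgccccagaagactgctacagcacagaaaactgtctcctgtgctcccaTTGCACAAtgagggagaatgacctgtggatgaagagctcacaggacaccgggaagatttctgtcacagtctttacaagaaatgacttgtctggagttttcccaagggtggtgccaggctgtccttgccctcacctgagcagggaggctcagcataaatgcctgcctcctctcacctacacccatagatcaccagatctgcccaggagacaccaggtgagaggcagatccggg
Saa2, chr7:46751583-46751882, plus strand: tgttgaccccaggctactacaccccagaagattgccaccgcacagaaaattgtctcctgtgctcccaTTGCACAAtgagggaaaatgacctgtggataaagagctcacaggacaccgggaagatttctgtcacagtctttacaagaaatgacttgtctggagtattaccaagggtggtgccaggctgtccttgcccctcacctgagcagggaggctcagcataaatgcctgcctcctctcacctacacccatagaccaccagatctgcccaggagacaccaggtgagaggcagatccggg
Saa3, chr7:46715627-46715926, minus strand: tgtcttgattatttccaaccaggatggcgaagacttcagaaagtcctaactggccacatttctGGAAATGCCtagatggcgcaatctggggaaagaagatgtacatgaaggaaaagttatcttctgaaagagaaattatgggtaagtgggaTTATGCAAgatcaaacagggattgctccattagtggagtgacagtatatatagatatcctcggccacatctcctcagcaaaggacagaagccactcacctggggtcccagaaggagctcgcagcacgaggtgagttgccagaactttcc
The windows of Saa1 and Saa2 were identical in 95.3% of 301 aligned positions, and each held 1 C/EBP match, TTGCACAA, whose first base is at −182 in Saa1 and −183 in Saa2, counted from the transcript start. Saa3 was identical to Saa1 in 46.5% of 314 positions. Its window held a C/EBP match at −99, written TTATGCAA on the gene's strand, and an NF-κB match, GGAAATGCC, at −187. Motifs were searched on both strands as TTGCNNAA for C/EBP (10.8% of 32851 promoter windows hold it), GGNNTTTCC or GGNNTTCCC for NF-κB (10.9%), TTCCNGGAA for STAT (1.15%), GTCTAGAC for SMAD (0.213%) and CTTTGAT for TCF/LEF (3.73%). A match describes letters only. The last 3 motifs had no match in the Saa1, Saa2 or Saa3 windows. Only these forms were searched, so a missing match does not show that a window lacks sites for a factor.

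Both Reg3 lectins had high signals in every Apc knockout tumor and varied widely among double knockouts. Reg3b had signals of 13.50, 10.83 and 11.86 in double knockouts 1 to 3 and 13.46, 13.65 and 13.49 in the Apc knockouts. Double knockout tumor 1 lay within the Apc knockout range, whereas tumors 2 and 3 lay below it. The means were 12.06 ± 1.35 and 13.53 ± 0.10 (SD, n = 3 each), a log2 difference of −1.47 (standard error 0.63, 95% confidence interval −3.01 to 0.07, adjusted p = 0.821 from limma), and −0.85 without double knockout tumor 2. Reg3g followed the same order of double knockouts, at 13.19, 10.54 and 12.56, with 13.14, 13.70 and 13.11 in the Apc knockouts. Its log2 difference was −1.22 (standard error 0.67, 95% confidence interval −2.84 to 0.40, adjusted p = 0.821 from limma), and −0.45 without double knockout tumor 2. For both lectins the groups overlapped (exact permutation test, two-sided, p = 0.3 for each). Reg4 differed least of the 3 lectins, with 13.66, 13.20 and 13.33 in the double knockouts and 13.55, 13.69 and 13.46 in the Apc knockouts. Its log2 difference was −0.17, with a 95% confidence interval of −0.54 to 0.19 (adjusted p = 0.835 from limma), and it was −0.07 without double knockout tumor 2. Reg4 stood above at least 99.2% of the probe sets in every tumor.

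Reg3b and Reg3g lie at the ends of the Reg cluster, with Reg3d, Reg3a, Reg2 and Reg1 between them. Their windows are shown because the pair ranked the double knockouts in the same order. That order is not particular to the pair, as Reg4, Pla2g2a, Retnlb and Ang4 also had it.
Reg3b, chr6:78370635-78370934, plus strand: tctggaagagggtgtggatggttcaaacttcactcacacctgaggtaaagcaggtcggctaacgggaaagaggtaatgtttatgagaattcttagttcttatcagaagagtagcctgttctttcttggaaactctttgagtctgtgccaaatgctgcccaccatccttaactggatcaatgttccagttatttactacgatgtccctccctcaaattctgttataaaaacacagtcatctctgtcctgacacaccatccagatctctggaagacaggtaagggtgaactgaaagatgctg
Reg3g, chr6:78468825-78469124, minus strand: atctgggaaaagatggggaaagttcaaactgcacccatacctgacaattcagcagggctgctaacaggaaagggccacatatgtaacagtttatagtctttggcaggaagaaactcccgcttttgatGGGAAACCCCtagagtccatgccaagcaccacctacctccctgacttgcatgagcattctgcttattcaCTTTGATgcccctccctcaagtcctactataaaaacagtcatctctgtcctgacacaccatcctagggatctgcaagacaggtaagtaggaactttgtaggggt
The windows were identical in 68.1% of 304 aligned positions. Reg3g held overlapping NF-κB matches, GGGAAACCC and GGAAACCCC on the gene's strand, which form the run of capitals from −123, and a TCF/LEF match, CTTTGAT, at −54. Reg3b held none of the motifs, and neither did the windows of Reg4 and Ang4. The Lyz1 window held a C/EBP match, TTAAGCAA, at −209. Of the relatives between them on the chromosome, Reg3a was at 5.81 to 6.76 in the double knockouts and 6.54 to 8.32 in the Apc knockouts, a log2 difference of −1.02 (standard error 0.49, adjusted p = 0.821 from limma). Reg1 was at 5.73 to 6.12 over all 6 tumors, and Reg2 and Reg3d lay below the filter on level.

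The 3 genes of Paneth cell granules, Lyz1, Pla2g2a and Ang4, were all lowest in double knockout tumor 2. Lyz1 had signals of 13.90, 12.48 and 14.01 in double knockouts 1 to 3 and 14.20, 14.17 and 14.11 in the Apc knockouts. No tumor of 1 group reached into the other, though double knockout tumor 3 lay only just below Apc knockout tumor 3. The log2 difference was −0.70 (standard error 0.41, 95% confidence interval −1.69 to 0.29, adjusted p = 0.821 from limma), and −0.21 without double knockout tumor 2. Pla2g2a had signals of 12.40, 10.85 and 12.32 against 12.96, 12.91 and 12.44. Here too the groups did not overlap, though only narrowly, between double knockout tumor 1 and Apc knockout tumor 3. Its log2 difference was −0.91 (standard error 0.43, 95% confidence interval −1.97 to 0.14, adjusted p = 0.821 from limma), and −0.41 without double knockout tumor 2. The exact permutation test gave p = 0.1 for each of these genes, the smallest possible. C57BL/6 mice carry a frameshift in Pla2g2a, and RefSeq classes the gene as a transcribed pseudogene in the C57BL/6J assembly, so its signal is a transcript level and not a measure of active enzyme. The sum of Paneth cell markers was lowest in the same tumor, at a summed log2 signal of 12.27 against 14.81 to 15.33 in the remaining 5, and their part in these values was not tested.

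Ang4 had signals of 11.44, 8.03 and 10.67 in double knockouts 1 to 3 and 10.84, 10.71 and 10.64 in the Apc knockouts. Double knockout tumor 1 was the highest of all 6 and tumor 2 the lowest, 8.17-fold below the mean of the other double knockouts. The log2 difference of −0.68 (standard error 0.84, 95% confidence interval −2.72 to 1.35, adjusted p = 0.873 from limma) turned to 0.33 without tumor 2. Retnlb had signals of 12.75, 11.22 and 11.23 in the double knockouts and 12.43, 12.18 and 10.56 in the Apc knockouts. It varied within either group (SD 0.88 and 1.02, n = 3 each), and the means lay 0.01 apart (95% confidence interval −1.52 to 1.55, adjusted p = 0.998 from limma). The difference was 0.27 without double knockout tumor 2, and it turned to −0.50 when double knockout tumor 1 was left out and to −0.57 when Apc knockout tumor 3 was.

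**Figure D2:**
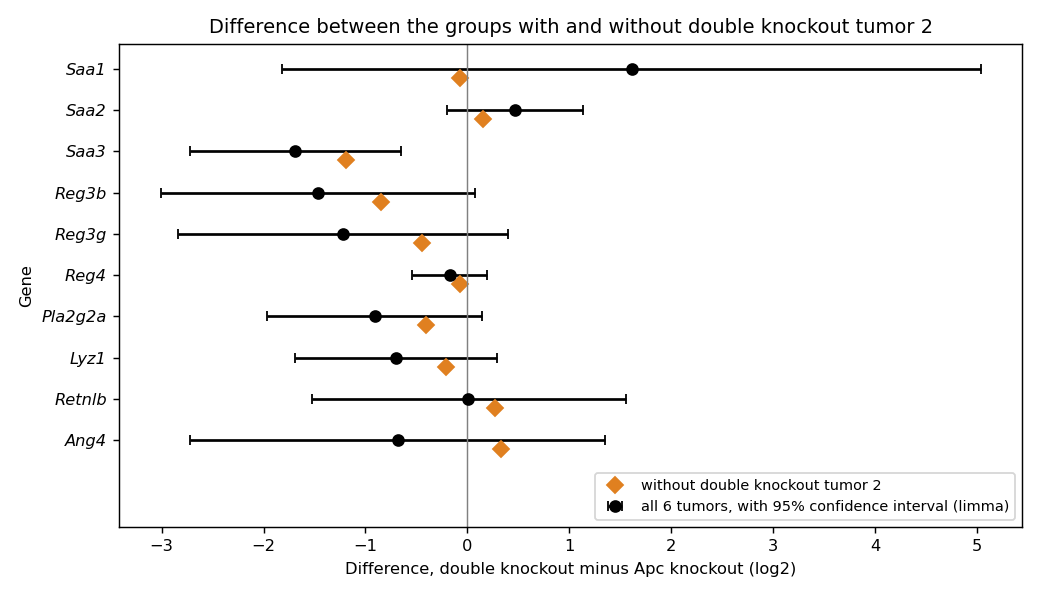
Difference in mean log2 signal, double knockout minus Apc knockouts (horizontal axis), for each gene (vertical axis), over all 6 tumors (black, with the 95% confidence interval from limma) and without double knockout tumor 2 (orange diamonds). The interval of Saa3 alone excludes 0 before adjustment, and leaving out tumor 2 brings Saa1 to −0.07 and Ang4 to 0.33.

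Of the 6 tumors, double knockout tumor 2 ranked lowest for 7 of the 10 genes (28.3% of all sets tested) and highest for 2, Saa1 and Saa2 (28.5%). Against the mean of the other double knockouts it differed by −3.03 for Ang4, −2.33 for Reg3g, −1.85 for Reg3b, −1.51 for Pla2g2a, −1.50 for Saa3, −1.47 for Lyz1 and −0.30 for Reg4 on the log2 scale, and by 5.02 for Saa1. Over the 6 tumors Lyz1 correlated with Pla2g2a at r = 0.97 and with Ang4 at 0.92, Reg3b with Reg3g at 0.94, and Saa1 with Reg3g at −0.91 (Pearson). These are descriptions over tumors of 2 groups and rest in part on tumor 2. Over the other 5 tumors the same pairs gave 0.82, −0.70, 0.85 and 0.03. Saa1 and Saa2 gave 0.92 with tumor 2 and −0.26 without it.
Among the tested sets with 1 symbol, outside the 10 genes, those most like each gene over the 6 tumors were picked by Pearson's r. They head a long list over so few points, so their r is high by selection. For Lyz1 they were Slc7a6 (r = 0.9988), the Paneth cell metalloproteinase Mmp7 (0.9985) and Tnfrsf19 (0.9985), and for Saa1 Pdzk1ip1 (0.9950), Cav2 (0.9942) and Timm8b (0.9941). Sdc1, Btf3l4 and Zfp385a were closest to Saa3 (0.9957 to 0.9977), C1qtnf12, Cabp1 and Chd7 to Reg3b (0.9903 to 0.9917), and Rbis, Cep70 and Gga2 to Reg3g (0.9950 to 0.9999). Rilp, Foxp2 and Tppp were closest to Saa2 (0.9969 to 0.9996), Chd7, Map3k12 and Scarb2 to Reg4 (0.9782 to 0.9960), and Gm5784, Mideas and Smyd2 to Pla2g2a (0.9921 to 0.9927). For Ang4 the range was 0.9912 to 0.9959 (5031439G07Rik, B3galt2 and Rnf157), and for Retnlb, with Stim2, Sec61a1 and A4gnt, it was 0.9765 to 0.9904. A4gnt, a mucin glycosyltransferase, was low like Retnlb in Apc knockout tumor 3 (7.21, against 8.63 and 8.62 in the others of that group).

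Other epithelial antimicrobial genes were more often highest than lowest in tumor 2, unlike the 10 genes. Of 31 sets, untested ones included, 14 were highest there and 5 lowest. Over all sets tested the shares were 28.5% and 28.3%. The median log2 difference of the 31 from the other double knockouts was 0.34, against −1.49 for the 10 genes. The genes named in this paragraph, apart from Lcn2, Wfdc15b, S100a9 and Defb1, were picked after their values had been seen. Itln1, the bacteria-binding lectin intelectin 1, was at 11.74, 7.93 and 11.59 in double knockouts 1 to 3 and at 11.59 to 12.18 in the Apc knockouts. Mptx1, a mucosal pentraxin, was at 5.70, 11.46 and 5.99 and at 5.74 to 6.47, the same pattern as Saa1. Slpi and Wfdc2, protease inhibitors of the WAP family, were at 11.45 and 12.47 in tumor 2 and at 7.51 to 7.89 and 8.84 to 9.06 in the other double knockouts. The chemokine Ccl28 was at 12.42 in tumor 2 and at 9.31 and 7.34 in tumors 1 and 3. Of the 29 sets tested, 15 had a higher and 14 a lower mean in the double knockouts (median log2 difference 0.01), and 9 and 20 without tumor 2 (median −0.13). None passed the adjusted threshold, and 3 were lower (3.82% of all sets) and 0 higher at an unadjusted p under 0.05. Lcn2, the siderophore-binding lipocalin, had the pattern of Saa3, with 11.46, 10.37 and 12.03 against 12.78, 12.89 and 12.55 (log2 difference −1.45, standard error 0.41, adjusted p = 0.821 from limma). Wfdc15b, a WAP domain gene, was at 6.79 to 7.66 against 8.16 to 8.53 (log2 difference −1.08, standard error 0.24). S100a9 and S100a8, the subunits of calprotectin that neutrophils hold in large amounts, differed by −1.84 (standard error 0.69) and −1.68 (standard error 0.78). The β-defensin Defb1 had a higher mean, at 6.08 to 6.67 against 5.63 to 6.10 (log2 difference 0.45, standard error 0.21, adjusted p = 0.821 from limma). The study lists Lcn2 and Wfdc15b on these same tumors, so their direction is not independent evidence.

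**Figure D3:**
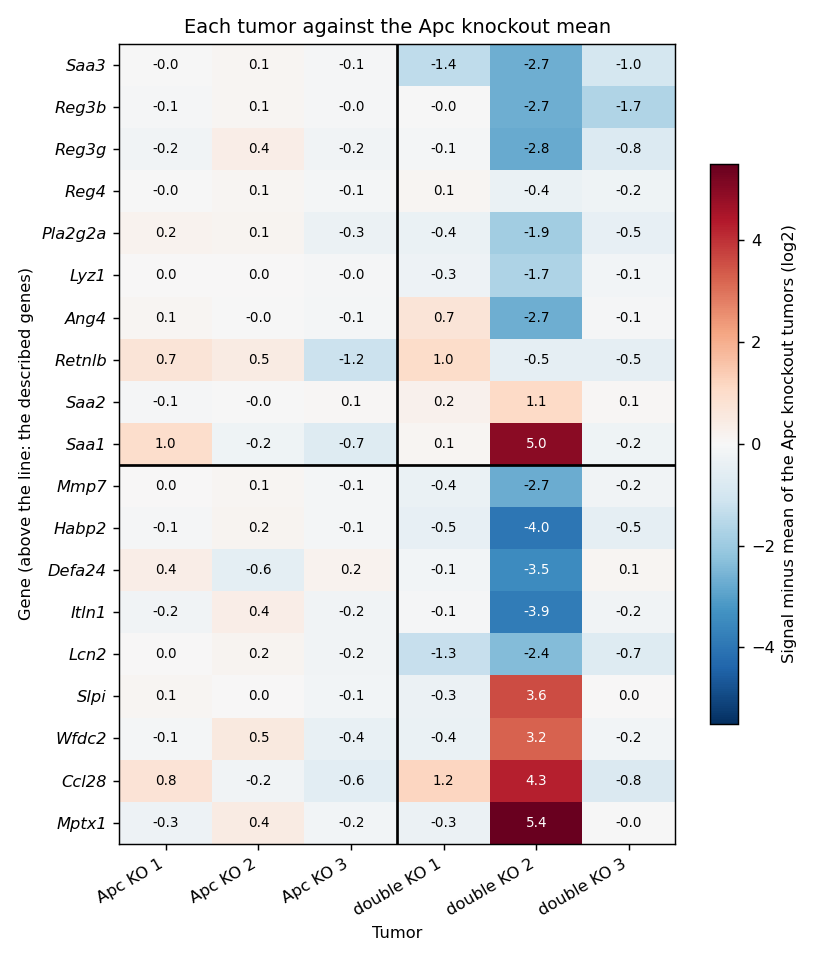
Log2 signal of each tumor (horizontal axis) minus the mean of the Apc knockouts, for the 10 genes (above the black line) and for 9 other secreted or Paneth cell genes (below it), on a color scale from blue (lower) to red (higher). Most of the 9 were picked after their values were seen, so the extremes shown rest on that choice. The column of double knockout tumor 2 holds them, from −3.97 for Habp2 to 5.44 for Mptx1. Saa3 and Lcn2 are below 0 in all 3 double knockouts.

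Of the Paneth cell marker sets, 5 of 6 (28.3% of all sets) had their lowest signal in the same tumor as Lyz1, Pla2g2a and Ang4. Of 15 marker genes, 11 were on the array, in 6 probe sets because several α-defensins share sets. All 6 sets (47.7% of all sets) had a lower mean in the double knockouts (median log2 difference −1.09, and −0.23 without tumor 2). Habp2 was at 11.20, 7.69 and 11.19 in the double knockouts and 11.56 to 11.82 in the Apc knockouts, and the α-defensin Defa24 at 12.79, 9.46 and 13.02 against 12.38 to 13.31. The log2 of the summed signal of these sets was 14.81, 12.27 and 15.03 in double knockouts 1 to 3 and 15.05 to 15.33 in the Apc knockouts. Their part in the levels of Lyz1, Pla2g2a and Ang4 was not tested.
Smooth muscle markers went the other way, with 8 of 9 highest in tumor 2 (28.5% of all sets). Their summed log2 signal was 14.17 there against 12.04 to 12.68 in the remaining 5. Goblet cell markers had summed log2 signals of 15.34 to 16.15 in the double knockouts and 15.39 to 15.98 in the Apc knockouts, and 14 colon epithelium markers 16.15 to 16.76 and 16.14 to 16.46. The mean signal of each of the 14 stood in the upper part of the arrays, above the 50th percentile. Of the 14, 11 were highest in tumor 2, while the gut transcription factor Cdx2, named after its values were seen, was at 8.24 there and at 10.08 to 11.18 in the other tumors.
Neutrophil markers were lower in 11 of 12 genes (47.7% of all sets), with a median log2 difference of −0.84 (−1.48 without tumor 2). At an unadjusted p under 0.05, 4 were lower (3.82% of all sets). Their summed log2 signal was 11.52, 13.64 and 11.57 in the double knockouts and 12.69 to 13.67 in the Apc knockouts. Of 12 macrophage and monocyte markers 8 were lower (median −0.13). Lyz2, the lysozyme of macrophages and the neighbor of Lyz1, was at 11.72 to 12.06 against 12.03 to 12.61 (log2 difference −0.42, standard error 0.18). Like Lyz1 it was lowest in tumor 2, where it differed by −0.31 from the mean of the other double knockouts. How far the probes of Lyz1 and Lyz2 share targets was not examined. Hepatocyte markers had summed log2 signals of 11.42, 11.52 and 10.58 in double knockouts 1 to 3 and 10.95 to 11.32 in the Apc knockouts. The sum was thus highest in tumor 2, where 2 of 9 sets were highest and 0 lowest. Transthyretin (Ttr) was at 10.41 there and at 6.35 to 7.05 in the other tumors, and albumin (Alb) was at 7.18 there and at 6.18 to 8.44 in the others. Pancreatic acinar markers had summed log2 signals of 9.50 to 9.62 in double knockouts 1 and 3, 11.18 in tumor 2 and 9.55 to 9.76 in the Apc knockouts. Of their 8 sets, just 2 were highest in tumor 2, and the median log2 difference from the other double knockouts was 0.05. The acinar marker with the highest signal in tumor 2 was Cela1 (10.80), which like Ttr and Alb was named after its values were seen. Small intestinal enterocyte markers had summed log2 signals of 10.65 to 11.91 and 10.91 to 11.69, and fibroblast markers of 12.63 to 13.68 and 13.13 to 13.76. The part of these markers in the results was not tested.

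Upstream of these genes, Cebpb, which encodes the C/EBP-β activator of acute phase promoters, was lower in each double knockout tumor (8.88, 8.84 and 8.88) than in any Apc knockout tumor (9.30, 9.45 and 9.18). Its log2 difference was −0.45 (standard error 0.11, adjusted p = 0.821 from limma), with tumor 2 close to the other double knockouts. Oncostatin M (Osm), a cytokine of the interleukin-6 family, differed by −0.62 (standard error 0.21) and the retinoic acid receptors Rara and Rarb by −0.25 and −1.28. Stat3, Il22ra1 and Il6 were named after their values were seen. Stat3, the transcription factor downstream of interleukin-6 and interleukin-22, was at 11.70 to 11.74 against 11.61 to 11.75. Il22ra1, the receptor chain for interleukin-22, was at 10.28 to 11.12 against 9.77 to 11.02, and Il6 at 5.12 to 6.14 against 5.56 to 8.67. Of 44 cytokine, receptor and transcription factor sets tested, 27 were lower and 17 higher (median −0.06), and 22 and 22 without tumor 2. No overlap in the lower direction was found for 3 of the 44 (6.94% of all sets). At an unadjusted p under 0.05, 2 were lower (3.82% of all sets) and 0 higher. Both counts lie near the shares over all sets. Cebpb was named as 1 of the 4 genes of lowest limma p in this list, so its separation rests on that choice.
Among 14 sets of receptors and binding partners, 8 were lower (47.7% of all sets) and 6 higher (median −0.02). Ager, the receptor RAGE that binds serum amyloid A, differed by −0.39 (standard error 0.14), and Rnh1, the ribonuclease inhibitor that binds angiogenins, by −0.25 (standard error 0.10). Plxnb2, an angiogenin receptor, differed by 0.29 (standard error 0.11), and Cap1, a receptor of resistin, by 0.22 (standard error 0.13). Of 14 hepatic acute phase sets tested, 9 were lower (47.7% of all sets) and 5 higher (median −0.02). At an unadjusted p under 0.05, 3 were lower (3.82% of all sets) and 0 higher. Haptoglobin (Hp), the hemoglobin-binding protein of plasma, was at 7.84 to 7.97 in the double knockouts against 9.69 to 10.59 (log2 difference −2.15, standard error 0.24). Ceruloplasmin (Cp), which carries copper, differed by −1.14 (standard error 0.16), and the metallothioneins Mt2 and Mt1 by −0.58 and −0.17. The study also lists Hp and Cp on these tumors, so their direction is not independent evidence.
Of 20 sets of family relatives tested, 11 were lower and 9 higher (median −0.04). Retnlg, the neutrophil-made relative of Retnlb that is also among the neutrophil markers, was at 6.90, 8.71 and 7.46 against 9.82, 9.65 and 8.77 (log2 difference −1.72, standard error 0.51). Pla2g2f differed by −0.81 (standard error 0.22) and Pla2g5 by 0.91 (standard error 0.33). Saa4, between Saa3 and Saa1 on the chromosome, lay below the filter on level, at 5.11, 6.10 and 5.19 against 4.91 to 5.72. Among the other angiogenins, Ang2 differed by 0.15, Ang5 by −0.07 and Ang6 by −0.13, and the set shared by Ang and Rnase4 differed by −0.10 (standard error 0.28). None of these sets passed the adjusted threshold.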

How the data were processed

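RNA from 6 laser-dissected colon tumors was hybridized to Affymetrix Mouse Gene ST arrays. According to the methods and the processing notes, the authors applied RMA in GeneSpring GX (background correction, quantile normalization, summary per probe set), and the deposited values are log2 signals. Neither the RMA version nor the annotation build is given in the sources used here. Sets were named from the platform annotation: of 35556 sets, 21789 have 1 symbol, 1621 several and 12146 none. The 19506 named sets whose mean reached the 20th percentile (5.88) were tested with limma 3.58.1 in R 4.3.3 (lmFit and eBayes), two-sided, without covariates, with Benjamini-Hochberg adjustment over all sets, a threshold of 0.05 and 95% intervals. This filter on level stands in for the methods' 20% cut-off, whose measure is not stated. Each gene was read from its set with the highest mean, and a set shared by several genes of a list was counted once. The 10 genes and the lists were chosen with earlier results of these data known. Named beside the 10 were from each gene list the 4 genes of lowest limma p, family relatives that neighbor or resemble a member, the 3 most correlated sets of each gene, and Tgfbr2 and Apc. Marker lists are given by counts and sums, and the markers named from them, like the other genes outside this rule, were chosen after their values were seen. Promoter windows are from RefSeq (GRCm38.p6) and were found for 8 of the 10 genes. They were aligned globally. The number of arrays limits the precision. Alternatives were the unpaired test of the methods, no filter, a 40th percentile filter (7.15), a filter that kept sets varying by under 20% (coefficient of variation) within each group, centring on array medians, a second quantile normalization, eBayes with trend and robust settings, a block for the replicate number, leaving out single tumors, and the mean of all sets of a gene.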

Additional observations from a re-analysis of the deposited data

How the results depend on the processing

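None of the 10 genes passed the adjusted threshold under any alternative in which it was tested. The filter on the coefficient of variation kept Reg4 alone of the 10, and the 40th percentile filter dropped Saa2. Where tested, Saa2, Saa3, Reg3b, Reg3g, Reg4, Pla2g2a and Lyz1 kept their direction, with Saa3 between −2.04 and −1.19 on the log2 scale and Reg3b between −2.19 and −0.85. With 1 tumor left out, Saa1 ranged from −0.07 (without double knockout tumor 2) to 2.53, Ang4 from −1.38 to 0.33 (without double knockout tumor 2) and Retnlb from −0.57 (without Apc knockout tumor 3; −0.50 without double knockout tumor 1) to 0.36. Retnlb was also at −0.0027 after another quantile normalization. Lower means were found for 7 or 8 of the 10 genes under all alternatives that kept the 10 or 9 of them. With 1 tumor left out, 238 to 710 sets were higher and 439 to 1006 lower at an unadjusted p under 0.05, and 14 to 213 and 54 to 297 at 2-fold as well, where all tumors gave 37 and 121. At those 2 limits the unpaired test of the methods gave 15 and 46. The coefficient of variation filter gave 107 sets past the adjusted threshold, 698 higher and 915 lower at an unadjusted p under 0.05, and 1 and 3 at 2-fold. Because it picks sets by the spread that the test uses, its p-values are too low and these counts cannot be read as changes. With the replicate block 0 sets passed the adjusted threshold, the counts at 2-fold were 51 and 186, and the adjusted p of Saa3 from limma was 0.616 (0.507 to 0.945 over all alternatives). Same-numbered tumors of both groups did not deviate together from their group means (r = −0.19, −0.10 and 0.04), and no double knockout tumor correlated best with its own number, so the numbers were not taken as pairs. Array number limits all of these values, and the cause of the shifts was not tested.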
